A study of Mus musculus with 36 samples.

Results

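The genes described here are the zinc finger genes whose mouse symbol begins with Zfp and a number. All such rows were taken from 2 deposited expression tables of mouse eosinophils, by symbol and without regard to their values. There were 233 of them among 9904 genes, 232 of 9844 genes in a table of 7 tissues and 164 of 8001 genes in a table of sorted small intestine eosinophils, with 163 in both. After a filter on low values, 232 of 232 were tested between tissues and 163 of 164 in the sorted cells. The GENCODE M21 annotation holds 416 genes with such a symbol, so the other Zfp genes were not analysed here.

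Eosinophils are granulocytes of type 2 immunity that live in the gut in large numbers at rest. Total eosinophils were flow-sorted from wildtype C57BL/6 mice at the steady state, aged 8 to 12 weeks, males and females pooled, and profiled as bulk RNA by the full-length Smart-seq2 method. There were 3 libraries each from bone marrow, lung, skin and colon, and 4 each from blood, spleen and small intestine, 24 in all. From the small intestine of NMUR1-TdT reporter mice of the same strain, age and sex mix, 5 libraries of Nmur1 positive and 6 of Nmur1 negative eosinophils were made. Nmur1 encodes a receptor for the neuropeptide neuromedin U, and in these mice a red fluorescent reporter marks the cells that use it. The labels do not say whether libraries of a group came from separate mice, so a p-value speaks for the spread of the libraries alone, and this spread may be technical.

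A classical C2H2 zinc finger is a short loop in which 2 cysteines and 2 histidines hold a zinc ion, and a row of such fingers reads DNA. Many of these proteins also carry a KRAB domain, which binds the co-repressor Trim28 and brings in chromatin silencers, chiefly at mobile elements. The Zfp36 family is unrelated to them in function: its CCCH fingers grip AU-rich stretches in the tails of short-lived messenger RNAs, such as those of cytokines and chemokines, and recruit the enzymes that shorten the poly(A) tail.

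The coding sequences show this division, and the first set of sequences is given because the Zfp36 family has fingers of another build. In the GENCODE M21 coding sequences, read in frame, the first CCCH finger of each family member is printed 5′ to 3′ with the codons of its 3 cysteines and 1 histidine in capitals.
Zfp36: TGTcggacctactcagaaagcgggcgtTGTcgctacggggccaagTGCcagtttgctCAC
Zfp36l1: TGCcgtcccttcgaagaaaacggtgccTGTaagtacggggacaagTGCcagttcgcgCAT
Zfp36l2: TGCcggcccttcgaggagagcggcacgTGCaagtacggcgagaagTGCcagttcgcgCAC
These were the only Zfp genes measured that held at least 2 such CCCH patterns, and 20 of 9730 genes with a coding model in the tissue table did. Of the 233 members, 227 held at least 1 C2H2 pattern, with a median of 10 and 191 members at 5 or more.

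A C2H2 finger is shown for 2 members that the tissue comparison turns on, each the last of its gene, with the 2 cysteine and 2 histidine codons in capitals.
Zfp869: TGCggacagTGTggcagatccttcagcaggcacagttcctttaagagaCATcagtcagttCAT
Zfp263: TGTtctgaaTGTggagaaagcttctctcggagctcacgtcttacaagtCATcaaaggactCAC
A KRAB pattern, a strict run of codons for the conserved core of the domain, was found in 92 of 233 members, 39.48%. Members without it may hold a domain with other letters. It is printed for the 3 members with it that stand highest in the gut or skin below, with the fixed codons in capitals.
Zfp869: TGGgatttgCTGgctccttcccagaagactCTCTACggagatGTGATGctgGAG
Zfp655: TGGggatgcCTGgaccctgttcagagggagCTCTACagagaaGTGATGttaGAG
Zfp120: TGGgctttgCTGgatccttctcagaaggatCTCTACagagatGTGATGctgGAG

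The site that the Zfp36 family binds is UAUUUAU, written TATTTAT in the annotation. The first copy in the 3′ UTR is shown for Zfp36 itself and for 3 chemokine and cytokine messengers, on the transcript strand with 8 bases to each side and the site in capitals.
Zfp36: gggcccttTATTTATgacgactt
Il1b: cacttaccTATTTATttatgtat
Cxcl2: agttcactTATTTATttatctat
Ccl3: tttgtgacTATTTATtctgaaag
The letters occurred in the 3′ UTR of 26.88% of 9629 measured genes and of 20 of 26 listed family targets. They occurred in 71 of 215 Zfp genes, 33.02%, and in 3 of 3 members of the Zfp36 family, with 3 copies each. A match of letters is a description and not evidence of binding.

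The deposited TPM of a tissue library added up to 796048 at the least and 890768 at the most, and that of a sorted library to 799585 and 863816, and the number of reads behind them is unknown. Lung libraries listed the fewest genes at 1 TPM or more, 7770 to 7876, against at least 8539 in the other tissues. All 14 eosinophil markers looked for, such as Siglecf, Epx and Prg2, were in the tissue table, with 1 at 0 in every colon library, and their summed TPM was 117310 to 163401 in bone marrow and 2707 to 52210 elsewhere. Summed markers of neutrophils, such as S100a8 and S100a9, over 12 detected genes of 13, reached 52436 to 75405 in bone marrow, blood, spleen and lung and 4484 to 14232 in skin, colon and small intestine. Erythroid and platelet markers were highest in blood, 39191 to 118875. Macrophage and monocyte markers, 5 detected of 10, summed to 3609 to 4080 in bone marrow and 120 to 859 elsewhere, and the 1 T and NK marker detected of 10 was at 594 to 755 there and at most 42.7 elsewhere. The part of these markers in the results below was not tested, and in bulk RNA fewer cells of a type and less RNA per cell cannot be told apart. Nmur1 itself was at 25.9 to 53.1 TPM in the positive libraries and at 0 to 15.6 in the negative ones, with no overlap. It was at 7.55 to 47.4 in the 4 small intestine libraries and at most 0.65 TPM in any other tissue library.

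Most Zfp genes were expressed at low levels. The median of their mean over the 7 tissues was 5.27 TPM, a value normalized for transcript length, against 14 TPM for all 9806 genes tested, with quartiles of 2.55 and 9.65 TPM. Only 4 of 232 averaged 100 TPM or more, namely Zfp36 (730), Zfp207 (132), Zfp36l2 (114) and Zfp263 (101), while 175 averaged under 10 TPM. Zfp207 encodes a spindle protein, and Zfp263 a C2H2 factor with 9 fingers by the codon pattern. The next were Zfp706 (73.6), Zfp672 (48.9), Zfp330 (48.9), which encodes a nucleolar protein, Zfp120 (44.5), Zfp511 (43.1) and Zfp87 (39.4).

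A large share of the Zfp messenger pool came from the Zfp36 family. The Zfp36 family made up 9.85% ± 1.80 (SD, n = 3) of the summed Zfp TPM in bone marrow, 15.1% ± 6.64 (n = 4) in spleen, 26.5% ± 4.44 (n = 4) in blood, 26.9% ± 6.40 (n = 3) in skin, 27.6% ± 5.56 (n = 4) in small intestine, 34.6% (32.9% to 37.0%, n = 3) in lung and 47.3% ± 5.92 (n = 3) in colon. The sum over the other members ran from 1302 ± 37.7 TPM in lung to 3009 ± 263 in skin. These 2 tissues thus stood at opposite ends for the other Zfp genes, while colon and bone marrow stood at opposite ends for the Zfp36 share.

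Zfp36, at chr7:28376784-28380253 on the minus strand (mm10), encodes tristetraprolin, the founding member of the CCCH family. It was at 183, 118 and 141 TPM in the 3 bone marrow libraries, at 370, 432, 121 and 131 in spleen, and at 664, 670, 580 and 369 in blood. It was at 561, 616 and 665 TPM in lung, at 687, 847 and 1112 in skin, at 864, 628, 1231 and 731 in small intestine, and at 1447, 1686 and 2171 in colon. All 3 colon libraries stood above every other tissue library, and all 3 bone marrow libraries stood below every library of blood, lung, skin and small intestine. The spleen libraries fell into 2 that overlapped blood and 2 that overlapped bone marrow.

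The level of Zfp36 differed between tissues by limma's F test (adjusted p = 1.49e-08). Against the mean of the 6 other tissues it fell in bone marrow, by 2.29 on the log2(TPM + 1) scale relative to the median gene (SE 0.27, adjusted p = 2.08e-07, mean 148 ± 32.9 TPM, n = 3). It also fell in spleen, by 1.60 (SE 0.24, adjusted p = 3.24e-05, 264 ± 161, n = 4), and rose in colon, by 1.87 (SE 0.27, adjusted p = 3.94e-06, 1768 ± 369, n = 3). The rises in skin (0.62, SE 0.27, adjusted p = 0.0263, 882 ± 215, n = 3) and small intestine (0.61, SE 0.24, adjusted p = 0.0174, 863 ± 263, n = 4) rested on single libraries, and blood (571 ± 141, n = 4, adjusted p = 0.927) and lung (614 ± 52.2, n = 3, adjusted p = 0.542) did not pass. The p-values of such contrasts, here and below, test a change against 0, while printed changes are relative to the median gene. That gene was itself lower in lung by 0.57 (log2), so a missing call there does not place Zfp36 level with it. Skin lost its call without replicate 2 (adjusted p = 0.079) or replicate 4 (0.162), and small intestine without replicate 3 (0.117). Both were also lost under median-ratio scaling (0.126 and 0.0565), which gave a call in lung (0.0459), and under quantile normalization (0.0606 and 0.0926).

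In order of the mean, Zfp36 ran from bone marrow through spleen, blood, lung, small intestine and skin to colon. In limma contrasts of neighbours in that order, bone marrow and spleen did not differ beyond their spread (adjusted p = 0.161), nor did blood and lung (0.778), lung and small intestine (0.272), or small intestine and skin (0.934). Spleen differed from blood (adjusted p = 0.0304) and skin from colon (0.0486).

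**Figure D1:**
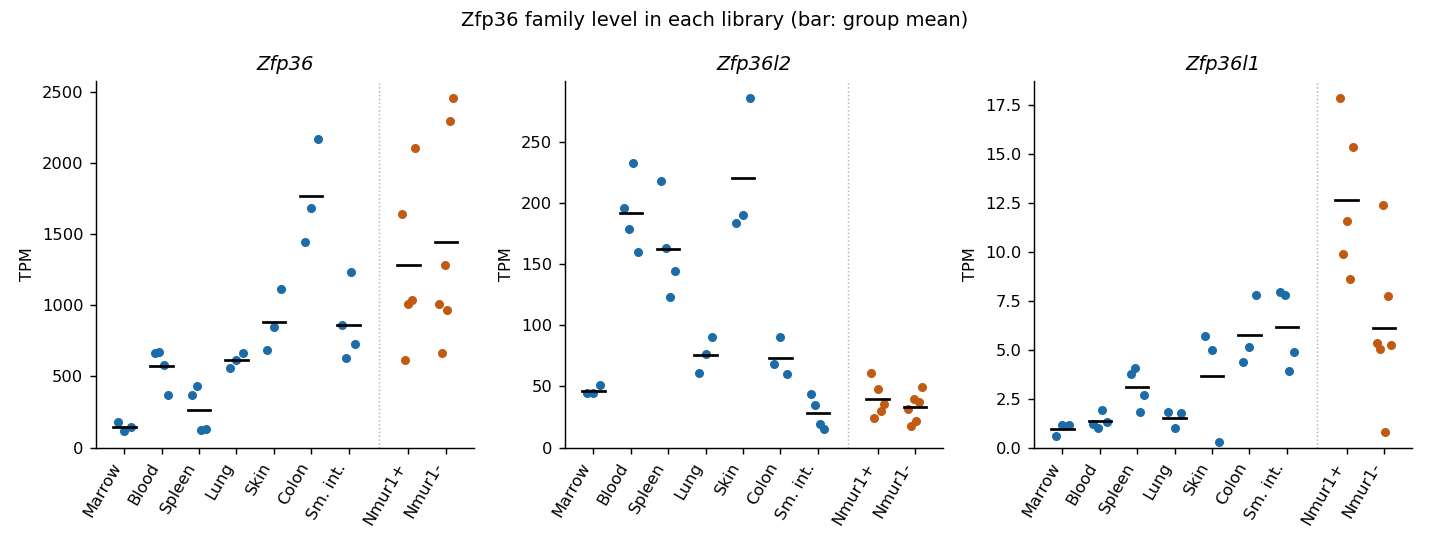
Level of Zfp36, Zfp36l2 and Zfp36l1 in TPM (linear axes from 0) in each tissue library (blue) and each sorted small intestine library (orange); each point is a library and each bar a group mean. Zfp36 is highest in colon (1768 TPM) and lowest in bone marrow (148 TPM), Zfp36l2 is lowest in small intestine (28.2 TPM), and the sorted populations overlap for all 3 genes.

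Zfp36l2, at chr17:84183931-84187947 on the minus strand, encodes a paralog with the same pair of fingers and had another order of tissues. It was at 44.4, 44.3 and 51.1 TPM in bone marrow, at 196, 179, 233 and 160 in blood, at 218, 163, 123 and 144 in spleen, and at 60.9, 76.5 and 90.1 in lung. It was at 184, 190 and 286 TPM in skin, at 68.5, 90.1 and 60.2 in colon, and at 43.5, 35.1, 18.9 and 15.2 in small intestine. Every small intestine library was below every library of the other tissues, so the gene was lowest where Zfp36 was among the higher tissues.

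The F test called Zfp36l2 as well (adjusted p = 4.35e-10). Relative to the median gene it fell by 2.14 in small intestine (log2, SE 0.19, limma adjusted p = 3.2e-09, 28.2 ± 13.4 TPM, n = 4) and by 1.15 in bone marrow (SE 0.22, adjusted p = 0.000285, 46.6 ± 3.87, n = 3). It rose by 1.32 in blood (SE 0.19, adjusted p = 1.3e-05, 192 ± 30.9, n = 4), 1.33 in skin (SE 0.22, adjusted p = 7.21e-06, 220 ± 57.2, n = 3) and 0.85 in spleen (SE 0.19, adjusted p = 0.000425, 162 ± 40.4, n = 4). Between neighbours in the order, small intestine differed from bone marrow (adjusted p = 0.0157) and lung from spleen (0.00256). Bone marrow and colon (0.0999), colon and lung (0.901), spleen and blood (0.852), and blood and skin (0.643) did not differ beyond their spread.

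Zfp36l1, at chr12:80107754-80113013 on the minus strand, was scarce in these eosinophils, with a mean of 3.22 TPM over the tissues. It ran from 0.6 to 1.16 TPM in bone marrow and from 3.94 to 7.96 in small intestine, with no overlap, and from 4.38 to 7.79 in colon. In skin it was at 5.7, 4.97 and 0.29 TPM, so replicate 4 stood far below the others. The gene rose in small intestine, by 0.99 (log2 relative to the median gene, SE 0.32, limma adjusted p = 0.00666, 6.16 ± 2.04 TPM, n = 4). Its calls in colon (higher, adjusted p = 0.041) and bone marrow (lower, 0.0219) were lost without any single library of those tissues, with adjusted p from 0.0706 to 0.211 and from 0.0569 to 0.125. Each of the 3 family genes overlaps an annotated gene on the other strand, and since Smart-seq2 does not mark strand, reads from the 2 cannot be told apart.

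The messengers that the family acts on differed widely between tissues. Of 34 AU-rich targets listed from the literature, 25 were tested, and in bone marrow 22 of them fell and none rose, with a median log2 change of -2.79 relative to the median gene, where 19.2% of all genes fell. Il1b, which encodes interleukin-1 beta, averaged 1.99 ± 0.94 TPM there (n = 3) and 1563 in the other tissues, and the chemokine gene Cxcl2 6.36 ± 2.60 against 3558. Against these, 19 of 25 rose in colon (14.4% of all genes), 19 in small intestine (24.7%), 19 in lung (9.62%) and 16 in skin (22.2%), and 21 fell in spleen (12.5%) and 18 in blood (18.3%). In small intestine, Ccl4 averaged 8154 ± 383 TPM (n = 4) against 251 elsewhere, and Il1a 1722 ± 368 against 163. Zfp36 itself passed in neither lung nor blood, in tests against 0, and the median gene was itself lower in lung by 0.57. Many of these targets are also genes of early activation, so the list is not independent of the next.

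The genes whose levels over the 24 libraries were most like those of Zfp36 were immediate early genes, which cells switch on within minutes of a stimulus. Among 5747 other genes at a mean of at least 10 TPM, the highest Pearson correlations were those of Junb (0.952), Fos (0.941), Ppp1r15a (0.919), Egr1 (0.902) and Btg2 (0.901). The libraries share tissues and handling, so these are descriptions over 24 points. Of 30 tested genes on a list of immediate early and dissociation response genes, 29 rose in colon, where 14.4% of all genes did, and 28 fell in bone marrow, where 19.2% did. The list was mixed in lung, with 16 that rose and 10 that fell, and in blood, with 8 and 16. The sum of that list was 727 to 792 TPM in bone marrow and 15442 to 20552 in colon, with spleen at 2174 to 4197, and its part in the differences of Zfp36 was not tested. The promoter of Zfp36 in the RefSeq table (GRCm38.p6) holds matches to 2 of the motifs searched, an EGR site and an SRF CArG box. They are printed with 10 bases on each side and the match in capitals, on the gene's strand.
Zfp36 EGR site, chr7:28379315-28379343: gagctacgccGCGGGGGCGcgtcccggaa
Zfp36 SRF CArG box, chr7:28379267-28379296: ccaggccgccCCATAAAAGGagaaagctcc
They begin 105 and 58 bases before the start that this table uses, which lies inside the longer GENCODE gene given above. Of 6 motifs searched in the 250 bases before the start, the other 4 had no match for Zfp36, namely the AP-1 site (TGACTCA or TGAGTCA), the cAMP response element (TGACGTCA), the E-box (CACGTG) and the NF-kappaB site, and Zfp36l1 had no match to any of the 6. Those 4 occurred in 4.463%, 1.546%, 6.021% and 3.899% of all promoters. The letters of the EGR site searched, GCGGGGGCG or GCGTGGGCG on either strand, occurred in 3.059% of 32851 promoters of that length and the CArG box in 1.467%. Of the 233 members 193 had a promoter in the table.

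Among the Zfp genes outside the family, the highest correlations with Zfp36 were those of Zfp868 (0.741), Zfp869 (0.723), Zfp131 (0.607), Zfp456 (0.555) and Zfp106 (0.554). They were weaker than those of the immediate early genes, and Zfp868 and Zfp869 are neighbours on chromosome 8 that return below.

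Other genes of the decay pathway changed less evenly. Of 29 tested genes of the deadenylation and decay machinery, 3 rose and 9 fell in bone marrow, where 22% and 19.2% of all genes did, and 7 rose and 1 fell in colon, where 14.4% and 6.36% did. Btg2, which links deadenylases to target messengers, averaged 61.3 ± 11.3 TPM in bone marrow (n = 3) and 1504 ± 172 in colon (n = 3), but it belongs to the early list as well. In lung 3 rose and 14 fell, near the 42.4% of all genes that fell there, among them Cnot8, a deadenylase subunit, at 7.30 ± 6.27 TPM (n = 3) against 50.3 elsewhere. Of 14 tested genes that set the phosphorylation of Zfp36, 8 fell in bone marrow, where 19.2% of all genes did, and none rose there. In spleen 7 fell and 1 rose, where 12.5% and 17.4% of all genes did. For blood the counts were 6 and 2, where 18.3% and 14.2% did. In each of lung, skin and colon 7 rose and 1 fell, where 9.62%, 22.2% and 14.4% of all genes rose. Small intestine had 5 that rose and 6 that fell, where 24.7% and 16.1% of all genes did. Mapkapk2, the kinase known to silence tristetraprolin, averaged 47.4 ± 5.41 TPM in bone marrow and 185 elsewhere.

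Over all Zfp genes, the F test between tissues called 164 of 232, 70.7%, where 81.1% of all genes tested were called. Lung held the lowest mean of 100 of these 164 members, 61%, and of 40.9% of all genes called. Skin held the highest mean of 61 of them, 37.2%, against 21.8% of all genes called. Spleen came next with 39, so the members were highest in skin or spleen and lowest in lung more often than in any other tissue. The 10 members with the smallest adjusted p were Zfp869, Zfp36l2, Zfp36, Zfp263, Zfp217, Zfp207, Zfp740, Zfp120, Zfp655 and Zfp874a, from 3.44e-10 to 3.13e-06.

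**Figure D2:**
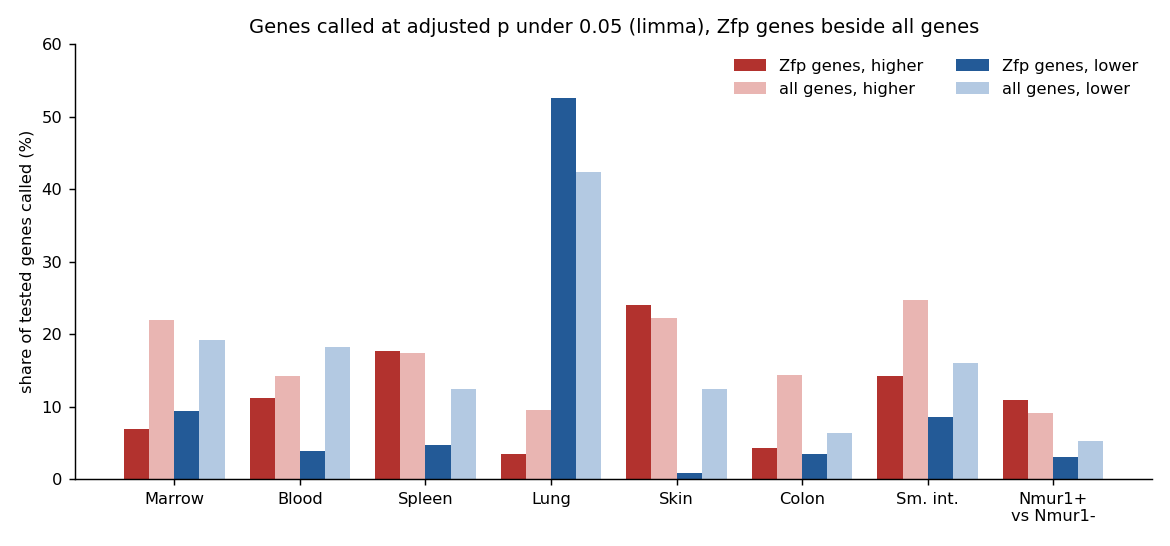
Share of tested genes called higher or lower in each tissue against the mean of the 6 others, and in Nmur1 positive against negative cells, in percent (bars from 0), for Zfp genes (dark) and all genes tested (pale). In lung 52.6% of Zfp genes were called lower, and in skin 24.1% higher and 0.862% lower.

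In lung most of the Zfp genes stood low. There 122 of 232 fell, 52.6%, against 42.4% of all genes, and 8 rose, against 9.62%. The median gene itself was lower in lung by 0.57 on the log2 scale, and the median Zfp gene lay a further 0.31 below it. The number of members at 1 TPM or more was 141 to 149 in the lung libraries and at least 189 in every other tissue library. The lung libraries also listed the fewest genes of any kind at that level, 7770 to 7876. In all 3 of them 9 members were listed at 0, and these were low elsewhere too, averaging 0.412 to 3.53 TPM. The shares were also set beside genes of like level: of genes averaging under 10 TPM, 92 of 175 Zfp genes, 52.6%, and 39.9% of all genes fell, and of those at 10 TPM or more, 30 of 57, 52.6%, and 44.1%.

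The lung result depended on scaling, in its size and in its place beside all genes. Under median-ratio scaling 83 of 232 fell and 15 rose, where 25.9% and 18.9% of all genes did. Quantile normalization forces the libraries to 1 distribution, and under it 28 of 232 fell and 25 rose, against 17.3% and 17.7%. There the members fell less often than all genes, the reverse of the main fit. The relative median of the Zfp genes stayed below 0 under both alternatives, at -0.43 and -0.12. The 8 that rose were 3 without lung replicate 2 and 5 without replicate 3.

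Zfp207 was the most abundant gene to fall in lung. It was at 40.6, 43.4 and 39.7 TPM in lung and between 93.1 and 250 TPM in all 21 other libraries, without overlap. Relative to the median gene it fell by 1.19 on the log2 scale (SE 0.18). The limma test of its change against 0 gave an adjusted p of 2.89e-08. Zfp874a was listed at 0, 0 and 0.11 TPM in lung and at 2.82 or more in every other library (adjusted p = 2.86e-07). Zfp825, Zfp637, Zfp24 and Zfp141 completed the 5 largest falls, with limma adjusted p from 2.11e-06 for Zfp825 to 7.25e-05 for Zfp637. Those that rose included Zfp667, at 8.81, 7.38 and 3.81 TPM against a mean of 1.47 elsewhere (adjusted p = 0.000794), and Zfp523 (0.000232). Zfp787, Zfp346 and Zfp672 rose too, but each lost its call without lung replicate 2 (adjusted p 0.0924 to 0.0939), and Zfp346 (0.316) and Zfp672 (0.0665) also without replicate 3.

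The KRAB genes had their lowest median in lung. Of 91 tested members with the KRAB pattern, 55 fell, 60.4%, and 1 rose, and of 138 others outside the Zfp36 family 67 fell, 48.6%, and 7 rose. Their relative medians were -0.53 and -0.21. The levels of the 2 classes were alike, with median means of 5.22 and 5.57 TPM. Among the KRAB co-repressors and chromatin silencers, 13 of 21 tested fell in lung, where 42.4% of all genes did, and 1 rose. Trim28, the protein that KRAB domains bind, averaged 20.1 ± 6.43 TPM in lung (n = 3) and 41.7 elsewhere (limma adjusted p = 0.00448), and Dnmt1, the maintenance DNA methyltransferase, 1.56 ± 0.82 against 10.1 (0.000376). The difference between the classes was not tested.

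**Figure D3:**
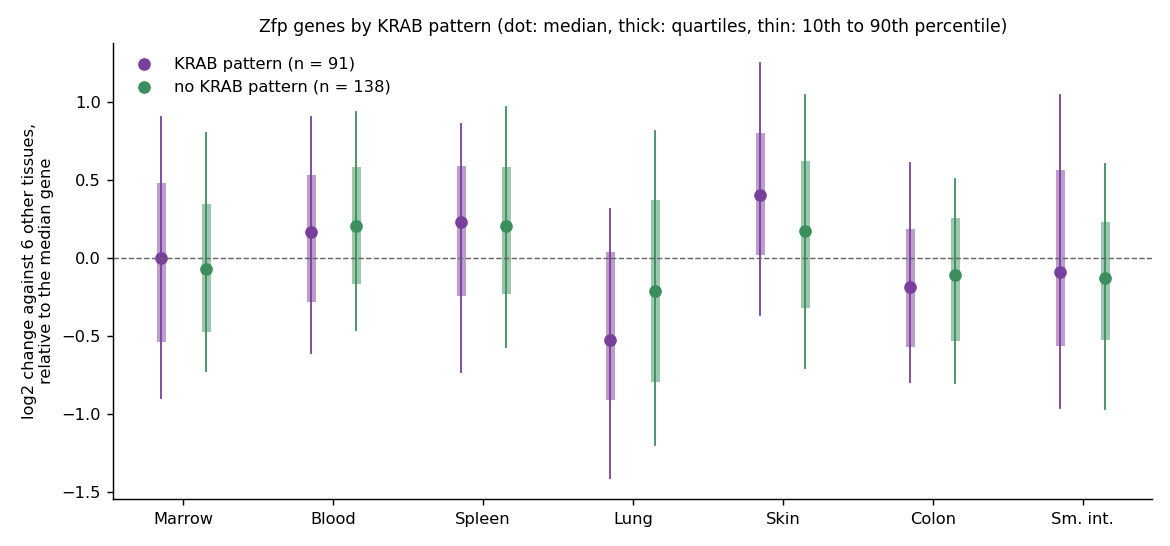
Distribution of the log2 change of Zfp genes in each tissue against the 6 others, relative to the median gene of all genes (dashed line at 0), for the 91 genes with the KRAB pattern (purple) and 138 without it and outside the Zfp36 family (green); dots are medians, thick bars quartiles and thin bars the 10th to 90th percentiles. The KRAB median is lowest in lung (-0.53) and highest in skin (0.40).

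Skin was the opposite of lung. There 56 of 232 Zfp genes rose, 24.1%, against 22.2% of all genes, and 2 fell, 0.862%, against 12.5%. The relative median was 0.28 for all members, 0.40 for those with the KRAB pattern, of which 24 rose and none fell, and 0.17 for the others, of which 30 rose and 2 fell. Of all genes averaging under 10 TPM 11.4% rose in skin, and of the Zfp genes there 35 of 175, 20%. At 10 TPM or more 29.8% of all genes and 21 of 57 Zfp genes, 36.8%, rose. Of the co-repressors 8 of 21 rose, against 22.2% of all genes, and none fell. They were led by Pphln1, a part of the HUSH silencing complex, at 47.5 ± 9.10 TPM (n = 3) against 14.6 elsewhere (adjusted p = 4.19e-06). Trim28 did not pass in skin (26.4 ± 11.4 TPM against 40.6, adjusted p = 0.0866).

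The 3 skin libraries were not alike. Replicate 4 was the lowest of the 3 for 24 of the 56 members called higher, 42.9%, and for 53.7% of all genes called higher. Without it 48 rose, 41 of them shared with the 56, and 8 fell, and without lung replicate 1, 4 fell. Median-ratio scaling gave 41 that rose and 8 that fell. Under it the relative median of the members was 0.32, against 0.28 in the main fit. The keratinocyte markers in skin summed to 42.5 to 134 TPM over 3 detected genes of 7 looked for, against 4.17 to 101 elsewhere, and their part was not tested.

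Zfp263 led the skin genes by level, at chr16:3744093-3750790 on the plus strand. It was at 281, 297 and 137 TPM in skin and between 23.5 and 135 TPM in every other library, so the skin libraries stood above the rest even with replicate 4. It rose by 1.48 (log2 relative to the median gene, SE 0.21, limma adjusted p = 7.98e-07). Zfp120, a KRAB gene at chr2:150114406-150136708, was at 149, 129 and 65.0 TPM in skin and at most 45.5 TPM elsewhere (rise of 1.58, SE 0.20, adjusted p = 2.38e-07). Both were lowest in bone marrow, where they averaged 29.7 ± 10.1 and 18.6 ± 2.43 TPM (n = 3) and also fell (adjusted p = 1.16e-07 and 4.75e-05).

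The 5 largest rises in skin were mostly of rarer genes. Zfp54 was at 5.52, 8.91 and 9 TPM in skin and listed at 0 in all lung libraries, and Zfp59 was at 6.32, 6.71 and 3.7 TPM in skin against a mean of 0.63 elsewhere. Zfp790 (7.35 ± 2.06 TPM against 1.47), Zfp52 (41.0 ± 4.33 against 11.8) and Zfp971 (83.1 ± 43.7 against 26.7) completed them, with limma adjusted p from 6.28e-06 for Zfp52 to 0.000894 for Zfp971. The 2 that fell were Zfp414 (4.77 ± 2.08 TPM against 20.7, adjusted p = 5.08e-05) and Zfp622, a factor of ribosome assembly (13.9 ± 5.33 against 26.4, adjusted p = 0.0342), whose call was lost without skin replicate 1 (0.238) or 4 (0.0959).

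A list of 14 members whose proteins are known for work on RNA, ribosomes or protein turnover had 12 tested. In skin 7 of the 12 rose and 1 fell, with a relative median of 0.68, where 22.2% and 12.5% of all genes did. Zfp706 rose to 152 ± 43.1 TPM (n = 3) against 60.5 elsewhere (limma adjusted p = 0.00043), and Zfp638, an RNA-binding nuclear protein, to 46.7 ± 10.9 against 19.8 (7.08e-05). Zfp451, a SUMO ligase, Zfp830, a splicing factor, Zfp106, Zfp91, a ubiquitin ligase, and Zfp207 were the others. In lung 4 of the 12 fell, 33.3%, against 42.4% of all genes, namely Zfp207, Zfp830, Zfp706 and Zfp326. Zfp346 and Zfp106 rose there, 16.7%, against 9.62%, and the relative median was -0.0039. The list was not tested as a set.

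**Figure D4:**
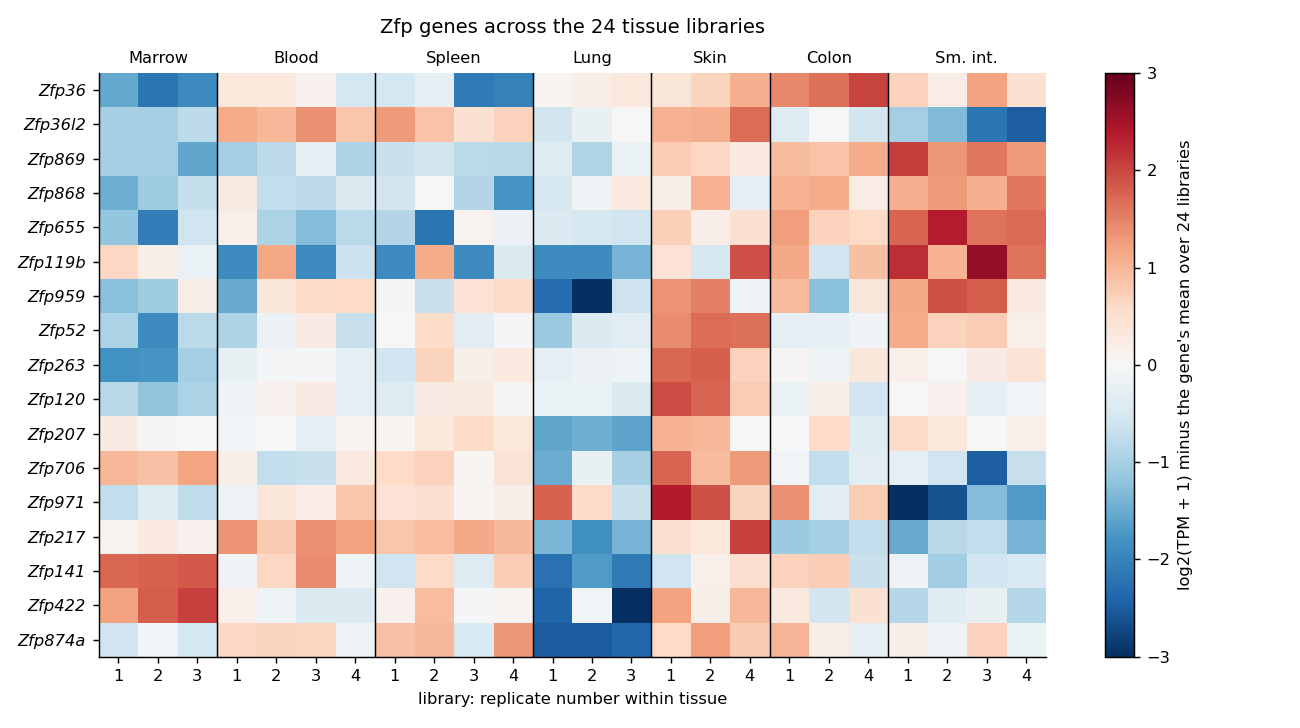
Levels of 17 Zfp genes named in the text over the 24 tissue libraries, as log2(TPM + 1) minus the gene's mean over all libraries (colour, limited to 3 on each side); columns are libraries with their replicate number, grouped by tissue. Zfp869 and Zfp655 are high in small intestine, Zfp263 and Zfp120 in skin, Zfp141 and Zfp422 in bone marrow, and Zfp207 and Zfp874a are low in lung.

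In the small intestine 33 of 232 Zfp genes rose, 14.2%, against 24.7% of all genes, and 20 fell, 8.62%, against 16.1%. Both shares were below those of all genes. Of the 33, 17 had the KRAB pattern, 18.7% of the 91 tested with it, against 24.7% of all genes. Of the 138 others outside the Zfp36 family 14 rose, 10.1%, and the difference was not tested. Without small intestine replicate 2, 13 Zfp genes fell. Median-ratio scaling gave 26 that rose and 28 that fell, and quantile normalization 26 and 32. The relative median of the members was -0.11 in the main fit, -0.085 under median-ratio scaling and -0.070 under quantile normalization.

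Zfp869 had the smallest adjusted p of any member between tissues. This KRAB gene lies at chr8:69706332-69710724 on the minus strand and holds 12 C2H2 patterns. It was at 14.1, 13.8 and 9.16 TPM in bone marrow, at 14.01 to 23.66 in blood, at 15.9 to 19.6 in spleen, and at 22.2, 15.1 and 24.97 in lung. It was at 49.9, 44.9 and 35.8 TPM in skin, at 57.0, 53.4 and 63.3 in colon, and at 126, 73.9, 88.8 and 71.7 in small intestine. The skin, colon and small intestine libraries stood above all others, and the small intestine above the colon, without overlap. It rose by 1.72 in small intestine (log2 relative to the median gene, SE 0.17, limma adjusted p = 3.01e-09) and by 1.05 in colon (SE 0.20, adjusted p = 8.94e-05). It fell by 1.46 in bone marrow (SE 0.20, adjusted p = 2.6e-06).

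Zfp655, a KRAB gene at chr5:145231715-145247302 on the plus strand, shared this order. It was at 90.8, 140, 84.2 and 88.0 TPM in small intestine, at 64.4, 43.3 and 40.5 in colon, and at most 44.4 in any other library. It rose by 2.07 in small intestine (SE 0.30, limma adjusted p = 1.47e-06). Zfp868 rose there to 44.4 ± 8.03 TPM (n = 4) against 17.9 elsewhere (adjusted p = 9.57e-05).

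Zfp869 and Zfp868 lie in a cluster of 6 annotated KRAB genes at chr8:69209038-69791178, of which 5 were measured. In small intestine 2 of the 5 rose and none fell, in colon 3 rose, and in lung 4 fell, where 24.7%, 14.4% and 42.4% of all genes did. Zfp963 of the same cluster went another way, at 5.44 ± 1.88 TPM in blood (n = 4) and 1.64 ± 1.76 in small intestine (n = 4). A trio at chr17:55864892-55949500 held Zfp119b and Zfp959, which rose in small intestine to 13.7 ± 6.65 and 22.3 ± 10.2 TPM (n = 4) against 3.14 and 8.55 elsewhere (limma adjusted p = 0.00114 and 0.00672). In a larger cluster at chr17:21008903-23599487, 16 of 23 annotated genes were measured, and 6 rose in skin, where 22.2% of all genes did, 3 rose in small intestine and 12 fell in lung. Genes of such clusters have near-identical copies, which RSEM splits reads between, so single values within them are uncertain.

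Zfp971 showed the largest fall in small intestine. This KRAB gene was at 1.37, 2.89, 8.67 and 6.39 TPM there and at 13.1 TPM or more in every other library, up to 124 in skin, so that the groups did not overlap. It fell by 2.82 (log2 relative to the median gene, SE 0.36, limma adjusted p = 8.32e-07). Zfp36l2, Zfp566, Zfp346, which encodes a protein binding double-stranded RNA, and Zfp296 were the next. Zfp346 averaged 3.02 ± 1.98 TPM there (n = 4) against 9.47 elsewhere (adjusted p = 0.000805). Gut epithelium markers summed to 101 to 228 TPM over 4 detected genes of 10 in the small intestine, 55.8 to 119 in colon and 7.06 to 93.9 elsewhere, and their part was not tested.

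Colon had the fewest members called. There 10 of 232 Zfp genes rose, 4.31%, against 14.4% of all genes, and 8 fell, 3.45%, against 6.36%. Zfp36 showed the largest rise, then Zfp930, Zfp429, Zfp869 and Zfp36l1, and of these Zfp36 and Zfp869 kept their call when any 1 library was left out. Leaving out a colon library left 4 or 5 that rose and 3 or 4 that fell, and both median-ratio scaling and quantile normalization left 4 that rose, with 10 and 12 that fell. Zfp157, Zfp160, Zfp839, Zfp87 and Zfp217 had the largest falls, with adjusted p from 0.0103 to 0.0298, and each lost its call without 1 or more colon libraries, replicate 4 for Zfp87 (0.373) and replicate 2 for the others (0.0578 to 0.133). Leaving out the lung libraries, an alternative chosen after seeing the data, gave 7 that rose and 23 that fell. The relative median of the members was -0.17 in the main fit. It was -0.13 under median-ratio scaling, -0.11 under quantile normalization and -0.21 without lung.

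In bone marrow 16 of 232 Zfp genes rose, 6.90%, against 22% of all genes, and 22 fell, 9.48%, against 19.2%. Both shares were below those of all genes, but the share that fell was not so at every level. At 10 TPM or more 20 of 57 Zfp genes, 35.1%, and 28.7% of all genes fell, and 5.26% and 18.6% rose. Under 10 TPM 2 of 175 Zfp genes, 1.14%, and 5.89% of all genes fell, and 7.43% and 26.9% rose. Zfp141, a KRAB gene, was at 14.5, 15.2 and 15.9 TPM in bone marrow against a mean of 3.69 elsewhere (rise of 1.998, SE 0.36, limma adjusted p = 4.62e-05). Zfp422 was at 18.1, 28.4 and 33.5 TPM against 7.52 (adjusted p = 0.000315), and Zfp414 at 29.8, 49.9 and 34.2 against 15.2 (0.000444). Zfp934 and Zfp7 completed the 5, but lost their call without single marrow libraries (adjusted p up to 0.173). The largest falls were those of Zfp36, Zfp263, Zfp655, Zfp52 and Zfp869, each of which was also called higher in skin, colon or small intestine.

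Of the co-repressors 7 of 21 rose in bone marrow and 2 fell, where 22% and 19.2% of all genes did, with a relative median of 0.12. Uhrf1 averaged 26.3 ± 0.33 TPM (n = 3) against 0.64 elsewhere, Cbx5 12.0 ± 2.03 against 1.35 and Dnmt1 28.9 ± 5.71 against 5.52, with limma adjusted p from 6.09e-10 to 9.69e-06. Uhrf1 and Dnmt1 serve maintenance DNA methylation in dividing cells, and Trim28 rose too (53.5 ± 4.47 TPM against 36.1, adjusted p = 0.0433). Of the KRAB genes themselves 5 of 91 rose and 7 fell, with a relative median of -0.0018. Without marrow replicate 2, 6 Zfp genes rose and 14 fell, without replicate 3, 7 rose, and without replicate 1, 14 fell. Quantile normalization gave 6 that rose and 63 that fell, and median-ratio scaling 23 and 20. The relative median of all members was -0.094 in the main fit, -0.39 under quantile normalization and -0.096 under median-ratio scaling.

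Blood and spleen had the Zfp genes slightly above the median gene. In blood 26 of 232 rose, 11.2%, against 14.2% of all genes, and 9 fell, 3.88%, against 18.3%. In spleen 41 rose, 17.7%, against 17.4%, and 11 fell, 4.74%, against 12.5%. The relative medians were 0.20 and 0.22. Of genes averaging under 10 TPM, 17.1% of Zfp genes and 10.7% of all genes rose in spleen, and 9.71% and 7.79% in blood. At 10 TPM or more the order turned, with 19.3% of Zfp genes and 22.1% of all genes in spleen, and 15.8% and 18.8% in blood. Without the lung libraries, an alternative chosen after seeing the data, 16 rose and 16 fell in blood, and 26 rose and 11 fell in spleen. The relative medians were then 0.15 and 0.17. In spleen 8 of 91 members with the KRAB pattern rose, 8.79%, and 32 of 138 without it, 23.2%, a difference that was not tested.

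Zfp217, a C2H2 protein found in co-repressor complexes, separated blood and spleen from gut and lung. It was at 18.1, 11.9, 18.4 and 16.3 TPM in blood and at 12.3, 13.1, 15.5 and 13.7 in spleen, but at 1.08 to 1.89 in lung, 2.44 to 3.48 in colon and 1.60 to 3.48 in small intestine, without overlap. It rose in blood (1.48, log2 relative to the median gene, SE 0.26, limma adjusted p = 0.000138) and spleen (1.06, SE 0.26, 0.00119) and fell in lung (by 1.16, SE 0.30, 3.83e-05) and small intestine (by 1.36, SE 0.26, 0.000422). Skin replicate 4, at 29.8 TPM, was far above the other skin libraries, at 9.39 and 8.24. Zfp740 followed Zfp217, at 26.6 ± 6.75 TPM in blood (n = 4), 26.7 ± 5.95 in spleen (n = 4) and 3.27 ± 1.14 in lung (n = 3).

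The other large rises were of rarer members. In spleen they were those of Zfp235 (10.6 ± 3.44 TPM against 3.37, adjusted p = 0.00347), Zfp101 (11.7 ± 5.79 against 3.92, 0.000929), Zfp952, Zfp874b and Zfp329, and in blood those of Zfp433 (11.8 ± 2.78 against 4.21, 0.0139), Zfp395, Zfp688 and Zfp36l2 beside Zfp217. Zfp433 lost its call without blood replicate 2 (0.0575), Zfp395 without replicate 4 (0.0606), and Zfp688 without replicate 1 (0.0633) or 2 (0.0661). The counts in blood moved too, since leaving out 1 blood library left 14 to 17 that rose, and 4 or 5 that fell without replicate 1, 2 or 4. In spleen 27 rose without replicate 2 and 7 fell without replicate 1. Quantile normalization gave 31 that rose and 4 that fell in blood. The relative median of the members there was 0.18, against 0.20 in the main fit.

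The sorted cells ask which Zfp genes differ with Nmur1 within 1 tissue. Of 163 tested, 18 were higher in Nmur1 positive cells, 11%, against 9.18% of all 7982 genes, and 5 were lower, 3.07%, against 5.25%. The median gene was higher in positive cells by 0.22 on the log2 scale, and the median Zfp gene lay 0.21 above it. Of the 18 that rose, 11 had the KRAB pattern, 17.2% of the 64 tested members with it. Of the 96 others outside the Zfp36 family 7 rose, 7.29%, and the difference was not tested. The shares called over all 163 members are near those of all genes. The relative median of the members stayed between 0.15 and 0.28 under every setting run. The summed TPM of the members outside the Zfp36 family was 2411 to 2811 in the positive and 1816 to 2227 in the negative libraries, with no overlap. The positive libraries also listed more genes of any kind at 1 TPM or more, 7901 to 7928 against 7740 to 7858. Of the members they listed 161 to 163 against 145 to 158. The part of this wider detection in the shift of the members was not tested. Median-ratio scaling gave 10 that rose and 5 that fell, against 4.54% and 7.40% of all genes, and quantile normalization 8 and 6, against 5.36% and 6.63%.

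Libraries of the 2 populations with the same replicate number deviated together, so the numbers were also used as a block on the 4 shared pairs, 8 libraries. The block gave 18 that rose, 13 of them shared, against 10.8% of all genes, and 2 that fell, Zfp429 and Zfp971, against 5.86%. Zfp593 (adjusted p = 0.0707), Zfp667 (0.0712) and Zfp787 (0.0532) were no longer called lower. Zfp143, Zfp236, Zfp276, Zfp748 and Zfp942 were no longer called higher (0.0525 to 0.155), and Zfp263, Zfp410, Zfp51, Zfp956 and Zfp994 were called higher.

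**Figure D5:**
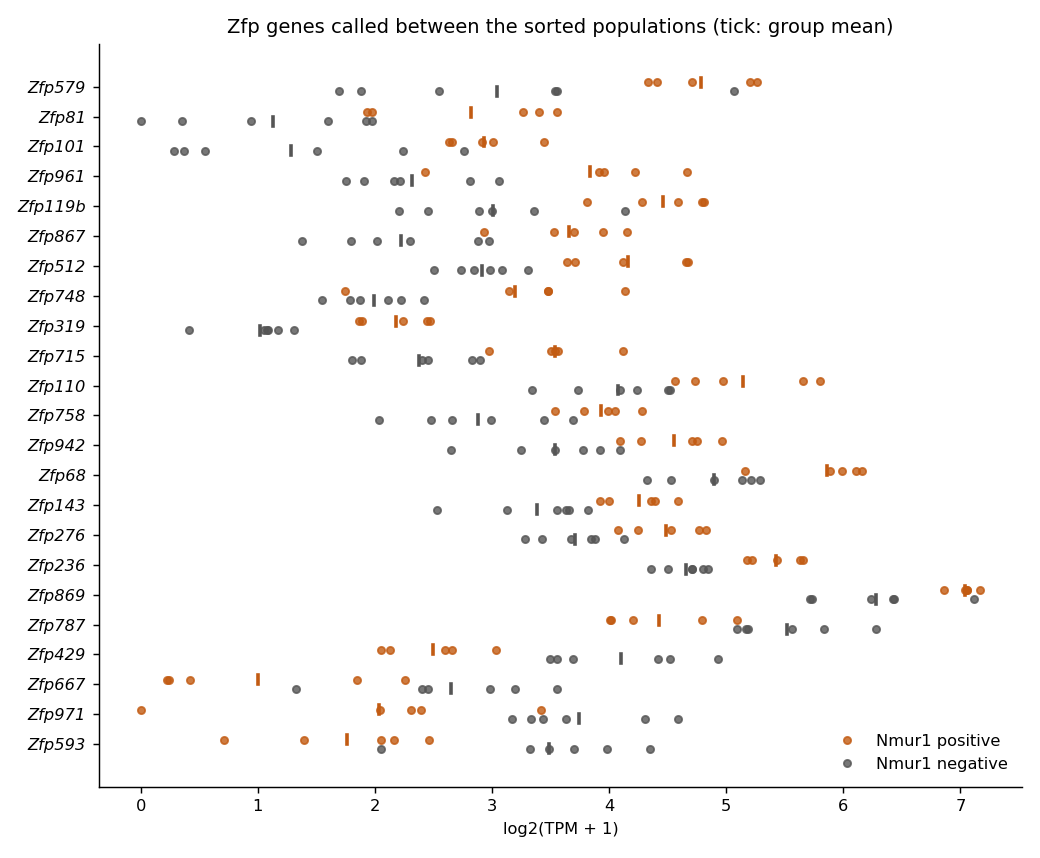
Levels on the log2(TPM + 1) scale of the 23 Zfp genes called between Nmur1 positive (orange, 5 libraries) and negative (grey, 6 libraries) small intestine eosinophils; each point is a library, each tick a group mean, and genes are ordered by their log2 change. The groups do not overlap for Zfp429, which is lower in positive cells, and for 6 of those higher, among them Zfp512 and Zfp236.

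In 8 of 163 members every positive library was above every negative library, where 5.65% of all genes were so placed, and in 1 every positive library was below, against 3.71%. Zfp512 was at 12.1, 16.4, 24.2, 11.5 and 24.6 TPM in the positive libraries and from 4.69 to 8.88 TPM in the negative ones, with a median of 6.56 (rise of 1.03, log2 relative to the median gene, SE 0.29, limma adjusted p = 0.00751, blocked 0.00873). Zfp110, known to bind the p75 neurotrophin receptor, was at 25.6, 49.3, 54.8, 22.7 and 30.3 TPM against 9.14 to 21.9, with a median of 17 (rise of 0.86, SE 0.29, adjusted p = 0.0194, blocked 0.00361). Zfp236 was at 35.2 to 49.3 TPM against 19.5 to 27.7 (adjusted p = 0.0124, blocked 0.0525) and Zfp143, an activator that binds many promoters, at 14.2 to 23.1 against 4.78 to 13.1 (0.0479, blocked 0.0605).

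Zfp429, a KRAB gene in a chromosome 13 cluster of 25, was at 3.15, 5.05, 7.2, 5.32 and 3.36 TPM in the positive libraries and from 10.3 to 29.6 TPM in the negative ones, with a median of 16.1. It had the smallest adjusted p of the members in the sort (fell by 1.82 on the log2 scale relative to the median gene, SE 0.33, limma adjusted p = 0.00317, blocked 0.0183). The other falls were those of Zfp593, a ribosome assembly factor (2.68 ± 1.54 TPM, n = 5, against 11.4 ± 5.49, n = 6), Zfp971 (4.21 ± 3.51 against 13.3 ± 6.10), Zfp667 (1.41 ± 1.68 against 6.02 ± 3.27) and Zfp787 (21.5 ± 8.05 against 47.1 ± 17.02).

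By size the largest rises were those of Zfp579, Zfp81, Zfp101, Zfp961, Zfp119b, Zfp867, Zfp512, Zfp748, Zfp715 and Zfp110. Zfp119b was at 18.4, 23.1, 26.8, 13.0 and 27.1 TPM in the positive libraries and from 3.62 to 16.6 in the negative ones, overlapping in 1 positive library (rise of 1.23, SE 0.34, limma adjusted p = 0.00876). Zfp869 was at 115 to 143 TPM in the positive libraries, with a median of 132, and at 51.6 to 137 in the negative ones, with a median of 79.8 (rise of 0.54, SE 0.21, adjusted p = 0.0242). Zfp579 (27.6 ± 8.6 TPM against 10.6 ± 11.3) lost its call without positive replicate 1 or 5 (0.0549 and 0.055), and Zfp748 lost it without any 1 of 9 of the 11 libraries (0.05 to 0.103). Zfp110 lost it without positive replicate 3 (0.0542) or 4 (0.0605), Zfp715 without positive replicate 4 (0.0552), and Zfp667 without positive replicate 1, 3 or 4 (0.0581 to 0.0588).

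The lists from the sort and from the tissues come from separate libraries. Of the 33 members called higher in small intestine, 31 were among the 163 tested in the sort. Among the 18 higher in Nmur1 positive cells were 6 of the 33, 18.2%, which is 33.3% of the 18. They were Zfp110, Zfp119b, Zfp236, Zfp68, Zfp867 and Zfp869. Zfp429 and Zfp593, lower in the positive cells, were 2 of the 33 called higher in small intestine, and Zfp971 was lower in both comparisons. Zfp101, higher in the positive cells, was among the 20 called lower in small intestine, of which 10 were tested in the sort. No test of the overlap was made.

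No member of the Zfp36 family passed the test between the populations. Zfp36 was at 1639, 612, 1010, 1038 and 2101 TPM in the positive libraries and from 663 to 2458, with a median of 1148, in the negative ones, which overlapped over most of their range (limma adjusted p = 0.805, two-sided exact permutation p = 0.745). Zfp36l2 averaged 39.6 ± 14.7 TPM (n = 5) and 32.9 ± 12.0 (n = 6) (exact permutation p = 0.433). Zfp36l1 averaged 12.7 ± 3.87 against 6.10 ± 3.82 TPM, with an exact p of 0.026, 0.078 after Benjamini-Hochberg adjustment over the 3 genes, and a limma adjusted p of 0.0795. Without negative replicate 4, at 12.4 TPM, its limma adjusted p was 0.0321. Of the listed AU-rich targets 13 of 24 fell in the positive cells and 6 rose, where 5.25% and 9.18% of all genes did. Among those that rose, Il27 was at 36.5 ± 13.2 TPM against 6.23 (limma adjusted p = 0.00218), and Fos at 1479 ± 655 against 619 (0.00542). Among those that fell were Nfkbia, an inhibitor of NF-kappaB, at 551 ± 150 TPM against 4505 (adjusted p = 1.62e-07) and Myc, whose 3′ UTR held 0 copies of the site, at 4.37 ± 2.35 against 65.7 (6.98e-07). Summed neutrophil markers were 6165 to 10384 TPM in positive and 9770 to 13228 in negative libraries, and gut epithelium markers 113 to 239 and 79.5 to 96.7 over 2 detected genes of 10. Macrophage and monocyte markers, 4 detected of 10, summed to 153 to 227 and 83.1 to 124, and the 1 stroma and endothelium marker detected of 9 was at 155 to 235.4 and 78.0 to 145, both without overlap. The part of all these markers in the sort was not tested.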

How the data were processed

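The authors deposited filtered TPM values, which are normalized for transcript length and library total, per gene for 24 tissue and 11 sorted libraries. The tools named in the submitters' processing notes include RSEM 1.3.3, STAR 2.7.5c and cutadapt 2.10, with the mm10 build, and the filter behind the deposited TPM tables is not given in the sources used here. Genes at 1 TPM or more in at least 3 tissue or 5 sorted libraries were analysed as log2(TPM + 1), a scale that understates changes of low genes, with limma 3.58.1 (R 4.3.3; eBayes with trend, two-sided). P-values were adjusted by Benjamini-Hochberg over all genes of a table, and 0.05 was the threshold. Calls test against 0, and printed log2 changes are relative to the contrast's median gene. The members and gene lists were chosen with earlier results of these data known. Named genes are the Zfp36 family, the 10 highest members, the 10 smallest F-test p, the 5 largest called rises and falls per tissue at 5 TPM or more, and 10 each in the sort. Members of the lists, genes like Zfp36 and, after their values were seen, Zfp868, Zfp963, Zfp143, Zfp236 and the calls that the block changed are named too. All 4 same-numbered pairs of sorted libraries deviated together (correlation 0.164 to 0.225), so replicate numbers were taken as a possible pairing there. The 26 pairs with unlike numbers ran from -0.175 to 0.194, with 3 above 0.1, so the pairing is not certain. Same-numbered tissue libraries did not deviate together (-0.045 to 0.088 over 62 pairs). A single-cell library was not analysed here. Patterns were read from GENCODE M21 on mm10.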

Additional observations from a re-analysis of the deposited data

Results flagged for a closer look

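In 300 groups of 4 to 6 libraries of the members named here, 14 held a library far from the rest by Dixon's test at 95%, where chance gives about 1 in 20. In spleen they were Zfp235 in replicate 4 (15.7 TPM), Zfp422 in replicate 2 (14.9 TPM), Zfp54 in replicate 3 (4.02 TPM) and Zfp667 in replicate 2 (5.01 TPM). In blood they were Zfp512 (23.7 TPM) and Zfp961 (18.7 TPM) in replicate 3 and Zfp874a in replicate 4 (4.12 TPM, below the others). In small intestine they were Zfp655 in replicate 2 (140 TPM), and Zfp59 (1.91 TPM) and Zfp7 (3.29 TPM) in replicate 3. In the sorted cells they were Zfp24 in negative replicate 8 (13.9 TPM), Zfp52 in positive replicate 4 (26.5 TPM), Zfp579 in negative replicate 5 (32.4 TPM) and Zfp692 in negative replicate 7 (15.5 TPM).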

How the results depend on the processing

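No called change of a named gene reversed its sign under the alternatives run. The balance of members higher and lower did turn: in bone marrow from 16 and 22 to 23 and 20 under median-ratio scaling, in colon from 10 and 8 to 4 and 10 (median-ratio), 4 and 12 (quantile) and 7 and 23 (without lung), in small intestine from 33 and 20 to 26 and 28, 26 and 32, and 29 and 39. The count between tissues stayed between 146 and 167 when 1 library was left out. Without single libraries, the members higher and lower numbered 6 to 20 and 14 to 26 in bone marrow, 14 to 28 and 4 to 12 in blood, 27 to 44 and 7 to 12 in spleen, 3 to 9 and 84 to 127 in lung, 38 to 58 and 2 to 8 in skin, 4 to 12 and 3 to 10 in colon, 23 to 34 and 13 to 27 in small intestine, and 12 to 22 and 4 to 5 in the sort. A filter at 5 TPM left 10 higher in bone marrow. Median-ratio scaling gave 15 higher in lung, 8 lower in skin, 4 higher in colon and 10 higher in the sort. Quantile normalization gave 6 higher and 63 lower in bone marrow, 4 lower in blood, 25 higher and 28 lower in lung, 7 lower in skin, 4 higher in colon, 32 lower in small intestine and 8 higher in the sort. The replicate block gave 2 lower in the sort. Without the lung libraries, chosen after seeing the data, 9 were higher in bone marrow, 16 higher and 16 lower in blood, 26 higher in spleen, 11 lower in skin, 23 lower in colon and 39 lower in small intestine. These counts stand without the shares of all genes, and all genes moved with the settings too. In lung the median gene changed by -0.57 (log2) in the main fit. It changed by -0.20 under median-ratio scaling and by -0.023 under quantile normalization. A turn in the counts is thus not a result about the Zfp genes alone. The cause of these moves was not tested. The read depth is unknown, which limits what can be said of members near 1 TPM.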
